A study of Homo sapiens with 6 samples.

Results

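The LDL receptor family comprises cell-surface proteins that share cysteine-rich ligand-binding repeats, and most members carry a short cytoplasmic tail that recruits endocytic and signalling adaptors. Some act mainly in endocytosis of lipoproteins and protease complexes, some are receptors for the secreted protein reelin or for agrin, and others are co-receptors for Wnt ligands. In the kidney, members of the family take up filtered proteins in tubule cells and take part in Wnt signalling.

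The transcripts described here are those of 9 genes of the family, *LRP1*, *LRP4*, *LRP5*, *LRP6*, *LRP8*, *LRP10*, *LRP11*, *LRP12* and *VLDLR*. They were taken by gene symbol from a table of 20020 genes, and all 9 were among the 12856 genes with enough reads to be tested. They were selected on their RIP over input values in these same libraries, so those values are given as a description, without a test.

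The cells were 786-O, a long-established line from a human clear cell renal carcinoma, and the assay was RNA immunoprecipitation followed by sequencing (RIP-seq). The comparison asked which transcripts came down with IGF2BP2, an RNA-binding protein of the cytoplasm described as a reader of N6-methyladenosine, in a study of TGF-beta signalling in this carcinoma. The RIP group held 3 libraries of RNA recovered with an antibody to IGF2BP2, and the input group 3 libraries of RNA from the same line before recovery. The labels name no genetic change, treatment or time for either group. Recovery with a control antibody was not analysed here, so background binding to antibody or beads is part of every RIP value. Whether replicates are separate cultures is not stated, so the replicate spread behind the p-values may be only technical.

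Column totals were 33872621 to 44045835 reads in RIP and 25773819 to 27226405 in input. Of the 10 markers fixed for a renal carcinoma line, all reached 1 CPM in some library, although *NDUFA4L2* reached only 1.17 CPM, and they summed to 6467 to 6843 CPM in RIP and 6086 to 6323 CPM in input. No immune or blood marker exceeded 0.458 CPM and no endothelial or fibroblast marker exceeded 4.65 CPM. Across the tested genes, 5232 were higher in RIP and 5403 lower at a Benjamini-Hochberg adjusted p under 0.05 in edgeR's quasi-likelihood test, that is 40.7% and 42.0% of them. Enriched genes made up 49.2% of these calls, and 38.9% when libraries were scaled by their size only. Scaling by size only moved the median log2 fold change of all tested genes from -0.024 to -0.26. Fold changes below use TMM scaling and so compare each gene with the average one.

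Within the family, *LRP11* stood apart at 25.6-fold higher in RIP than in input. *LRP12* was 1.90-fold higher and *LRP6* 1.55-fold higher, followed by *LRP8* at 1.38-fold, *LRP10* at 1.36-fold and *LRP4* at 1.32-fold. The other members were lower in RIP, *LRP1* by 1.76-fold and both *LRP5* and *VLDLR* by 1.22-fold. For 6 of the 9 genes all RIP libraries lay above all inputs, where 40.9% of all tested genes did so, and for 3 all RIP libraries lay below, as for 42.2% of all tested genes. Since the genes were chosen with this comparison known, nothing is read from these counts. The median log2 fold change over the 9 genes was 0.44. In bulk RNA, how many cells hold a transcript and how much each holds cannot be told apart.

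**Figure D1:**
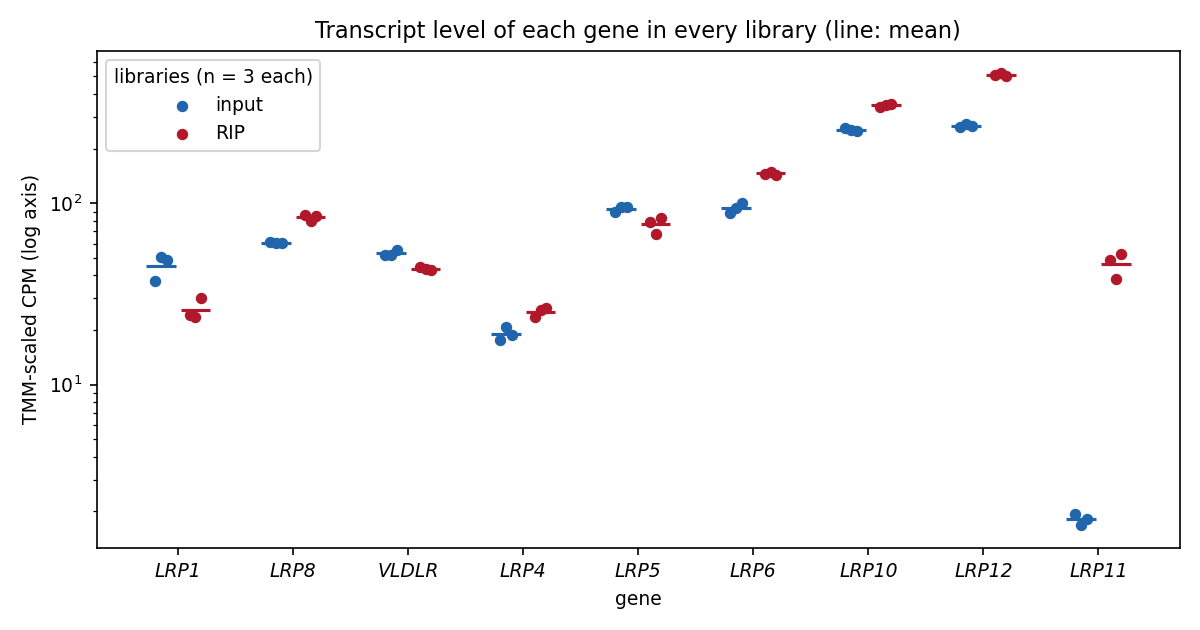
Level of each gene in every library, as TMM-scaled CPM on a log axis, with input in blue and RIP in red (3 libraries each, line at the mean). For every gene the groups do not overlap, and *LRP11* moves from 1.81 CPM in input to 46.5 CPM in RIP.

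*LRP1* encodes a large endocytic receptor for apolipoprotein E, protease complexes and many other ligands. Its locus spans chromosome 12, 57128483 to 57213361 (GRCh38.p14), and its exonic length of 16894 nt was the longest of the family. In input libraries 1, 2 and 3 it stood at 37.1, 50.3 and 48.4 CPM after TMM scaling, and in RIP libraries 1, 2 and 3 at 24.1, 23.6 and 30.05 CPM. All RIP libraries were below all inputs, but input 1 was nearer to RIP 3 than to the other inputs. The log2 fold change was -0.81 (SE 0.18, n = 3 each), and the coefficients of variation of 13.9% in RIP and 15.7% in input were among the highest of the family.

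*LRP8*, a receptor for apolipoprotein E, and *VLDLR*, the very low density lipoprotein receptor, are the receptors for reelin. The *LRP8* locus spans chromosome 1, 53242364 to 53328070, and *VLDLR* chromosome 9, 2621787 to 2660056. *LRP8* stood at 61.3, 60.6 and 60.5 CPM in input libraries 1 to 3 and at 86.0, 80.2 and 84.6 CPM in RIP libraries 1 to 3, a log2 fold change of 0.46 (SE 0.031). The inputs were nearly level, at a coefficient of variation of 0.698%, and every RIP library was higher. *VLDLR* stood at 51.8, 52.2 and 55.0 CPM in input and at 44.5, 43.4 and 42.6 CPM in RIP, a log2 fold change of -0.28 (SE 0.033). Here every RIP library was lower, so the reelin receptors lay on opposite sides of their inputs.

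*LRP4* is the muscle receptor for agrin and also binds inhibitors of Wnt signalling. Its locus spans chromosome 11, 46856717 to 46918550. *LRP4* stood at 17.6, 20.9 and 18.8 CPM in input and at 23.5, 25.8 and 26.4 CPM in RIP, with a log2 fold change of 0.40 (SE 0.087). Every RIP library was above every input.

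*LRP5* and *LRP6* encode the paired co-receptors that bind Wnt ligands together with Frizzled receptors. *LRP5* spans chromosome 11, 68298412 to 68449275, and *LRP6* chromosome 12, 12116025 to 12267044. *LRP5* stood at 89.3, 95 and 95.2 CPM in input and at 78.9, 67.7 and 83.1 CPM in RIP, a log2 fold change of -0.29 (SE 0.094). RIP 2 was the lowest library, and without it the log2 fold change was -0.20. *LRP6* stood at 88.1, 94.0 and 100.4 CPM in input and at 146, 149 and 144 CPM in RIP, a log2 fold change of 0.64 (SE 0.057). The co-receptors thus lay on opposite sides of their inputs.

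*LRP10* and *LRP12* belong to a branch of the family with CUB domains, and *LRP10* is known as a receptor that cycles between the Golgi and endosomes. *LRP10* spans chromosome 14, 22871740 to 22881713, and *LRP12* chromosome 8, 104489236 to 104589258. *LRP10* stood at 259, 255 and 251 CPM in input and at 338, 348 and 355 CPM in RIP, a log2 fold change of 0.44 (SE 0.024). *LRP12* stood at 263, 273 and 268 CPM in input and at 509, 520 and 500 CPM in RIP, a log2 fold change of 0.93 (SE 0.022). Both had tight replicates, with coefficients of variation of 1.61% to 2.38%, and wide gaps between the groups. The third gene of this branch, *LRP3*, was not tested because no library held more than 7 of its reads.

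*LRP11* encodes a membrane protein with a MANSC domain and is among the least studied members. Its locus spans chromosome 6, 149818757 to 149864359. The inputs held 55, 50 and 51 reads and the RIP libraries 1702, 1547 and 1637, which is 1.94, 1.68 and 1.82 CPM against 48.7, 38.4 and 52.4 CPM after TMM scaling. The lowest RIP library, RIP 2, was far above every input. The log2 fold change was 4.68 (SE 0.15), the fourth highest of the 12856 tested genes, and it ran from 4.59 to 4.81 when each library was left out in turn. The genes ranked above it, *OVCA2*, *TMEFF1* and *TICAM2*, had RIP means of 2.14, 1.62 and 4.61 CPM. The rank is part of the contrast that chose the gene and is given as a description.

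By the distance between library profiles (log2 CPM centred on each gene, over the 6 libraries), the gene most like *LRP11* among 8815 candidates was *FTH1*, the ferritin heavy chain of iron storage, at 0.24. The next were *HMGA1*, a chromatin architectural protein, at 1.52 and the zinc finger gene *ZNF213* at 1.64. Genes under a mean of 5 CPM were not candidates. By log2 fold change, *FTH1*, *HMGA1* and *ZNF213* held ranks 5, 9 and 10 of all tested genes. The distance thus largely repeats the RIP over input difference that chose *LRP11*, and the likeness is given as a description. *FTH1* stood at 69.1, 62.5 and 62.6 CPM in input and at 1543, 1389 and 1575 CPM in RIP, 23.2-fold higher. Like *LRP11*, it was lowest in RIP 2 among the RIP libraries and highest in input 1 among the inputs.

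For every 100 *FTH1* reads there were 2.80, 2.69 and 2.90 *LRP11* reads in input libraries 1 to 3 and 3.16, 2.76 and 3.33 in RIP libraries 1 to 3. These ranges overlap, which follows largely from the similar fold changes of *LRP11* (25.6-fold) and *FTH1* (23.2-fold). Per 100 *HMGA1* reads there were 3.35 to 4.18 *LRP11* reads in input and 7.60 to 10.0 in RIP. Per 100 *ZNF213* reads there were 14.9 to 15.8 and 34.7 to 42.1, and neither pair of ranges overlapped. *HMGA1* and *ZNF213* rose less than *LRP11*, by 10.7-fold and 9.86-fold, so a higher ratio in RIP follows from those values. *FTH1* lies on chromosome 11, 61964285 to 61967634. RefSeq lists 27 pseudogenes under its symbol, of which 3 are on chromosome 6, none lies within the *LRP11* locus and none has a row in the count table. The sources used here do not say how multiply aligned reads were counted, so the *LRP11* level is uncertain. Whether the *LRP11* and *FTH1* rows share reads was not tested.

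**Figure D2:**
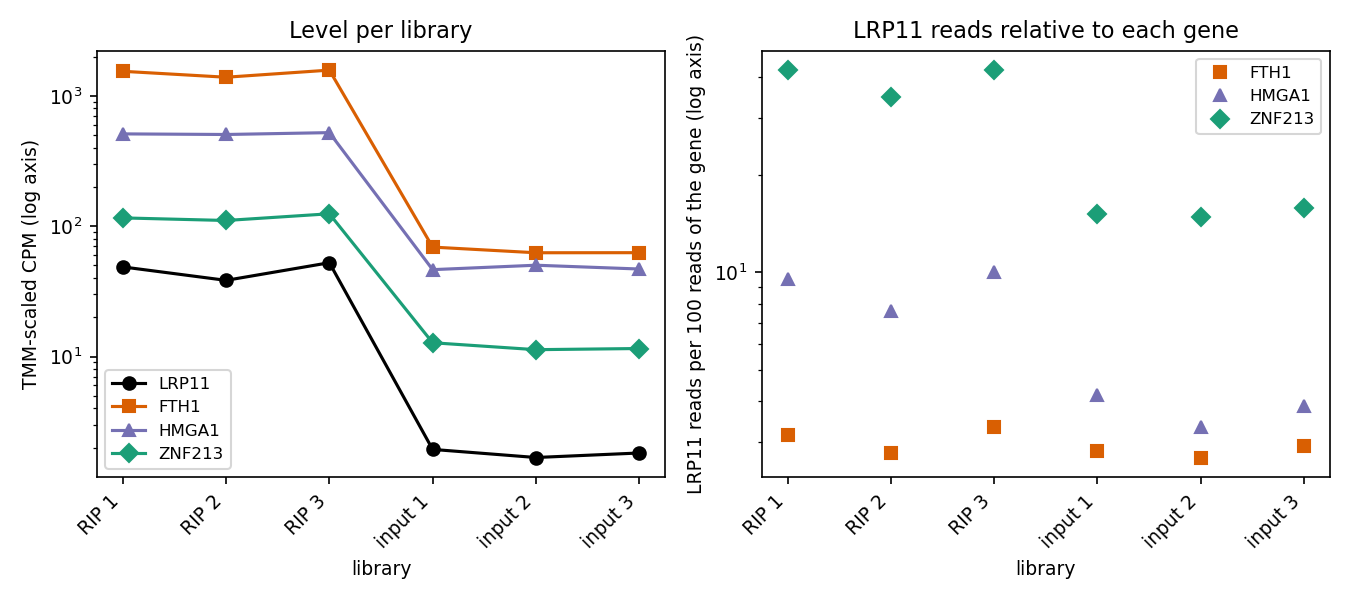
Left, level of *LRP11* and of the 3 genes with the most similar profiles in each library, as TMM-scaled CPM on a log axis. Right, *LRP11* reads per 100 reads of each of these genes on a log axis. Relative to *FTH1* the value stays between 2.69 and 3.33 in all 6 libraries. Relative to *HMGA1* and *ZNF213*, which rose less than *LRP11*, it is higher in every RIP library than in every input.

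The tested genes next to *LRP11* did not share its 25.6-fold difference. *PCMT1*, a protein repair methyltransferase whose locus ends 7336 nt away, was 2.41-fold lower in RIP, at 53.7 ± 1.88 CPM against 130 ± 1.95 in input (edgeR adjusted p = 1.14e-18). *RAET1E*, which encodes an immune receptor ligand, lies 18820 nt away on the other side and was 2.63-fold higher, but from a level of 0.234 ± 0.126 CPM to 0.610 ± 0.121 (edgeR adjusted p = 0.00512). In RefSeq, 3 noncoding transcripts overlap the *LRP11* locus, among them a *RAET1E-LRP11* readthrough. Across the family 8 of the 9 loci overlap at least 1 RefSeq gene, and none of those overlapping genes has a row in the count table. The counting's strand setting is likewise unstated, so reads of such transcripts could not be told from those of the receptors.

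The gene most like *LRP1* was *NISCH*, which encodes the endosomal protein nischarin, at a distance of 0.070. *HSPG2*, the basement membrane proteoglycan perlecan, followed at 0.17 and *HIP1R*, an endocytic adaptor that binds actin, at 0.19. All were lower in RIP, by 1.79-fold, 1.64-fold and 1.78-fold. The distance includes the RIP over input difference that chose *LRP1*, so this likeness too is a description.

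The family was ranked by level per length, as the deposited FPKM. In input, *LRP12* had the highest level at 66.4 ± 1.73 FPKM (mean ± SD, n = 3), then *LRP10* at 40.2 ± 0.490, *LRP5* at 19.6 ± 0.840, *LRP6* at 9.98 ± 0.698, *LRP8* at 7.36 ± 0.0255 and *VLDLR* at 6.11 ± 0.218. *LRP1* at 2.91 ± 0.477 and *LRP4* at 2.55 ± 0.238 overlapped each other, and *LRP11* was lowest at 0.335 ± 0.0215. All other neighbours in this order had libraries that did not overlap. *LRP12* and *LRP10* therefore led the family in these cells, and *LRP4* was 7.60-fold above *LRP11*.

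In RIP the upper ranks kept their order, with *LRP12* at 107 ± 1.68 FPKM and *LRP10* at 46.3 ± 1.06. *LRP5* at 13.6 ± 1.47 and *LRP6* at 13.1 ± 0.193 overlapped, as did *LRP8* at 8.58 ± 0.351 and *LRP11* at 7.29 ± 1.17. *VLDLR* at 4.24 ± 0.0990, *LRP4* at 2.85 ± 0.166 and *LRP1* at 1.41 ± 0.199 completed the order. *LRP11* thus moved from rank 9 to rank 6, and *LRP1* from rank 7 to rank 9. Of the FPKM summed over the 9 genes, *LRP12* made up 42.7% ± 0.225 in input and 52.3% ± 1.26 in RIP, *LRP10* 25.9% ± 0.791 and 22.7% ± 0.446, and *LRP11* 0.216% ± 0.0187 and 3.56% ± 0.544. Together the 9 genes took 0.0937% to 0.0987% of the reads of an input library and 0.119% to 0.121% of a RIP library.

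**Figure D3:**
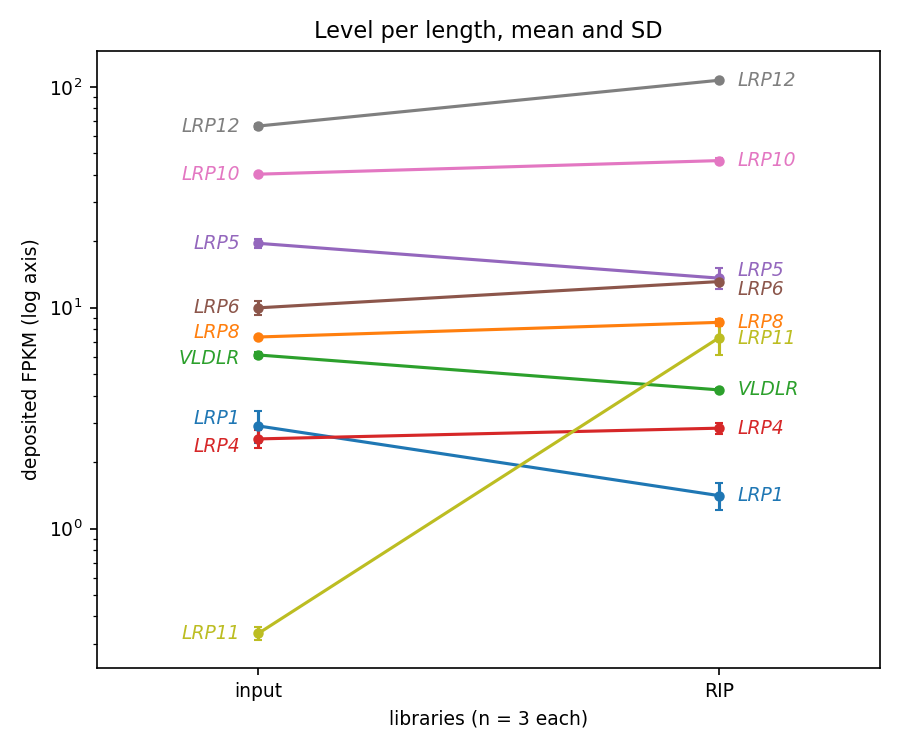
Level per length of each gene in input and RIP, as the deposited FPKM on a log axis (mean and SD of 3 libraries). *LRP12* and *LRP10* have the highest levels in both groups, and the line of *LRP11* climbs from 0.335 to 7.29 FPKM.

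Longer genes had higher fold changes over the whole table (Spearman's rho of 0.44 across 12856 genes, which are not independent replicates), and the family's exonic lengths ran from 4383 nt for *LRP12* to 16894 nt for *LRP1*. With the trend of enrichment on length removed, the log2 fold changes were 4.38 for *LRP11*, 0.82 for *LRP12*, 0.14 for *LRP6* and 0.075 for *LRP10*. *LRP8* and *LRP4* then turned to -0.0037 and -0.034. *LRP5* stood at -0.50, *VLDLR* at -0.76 and *LRP1* at -1.36. The longest gene, *LRP1*, was thus lower in RIP with and without the correction, and *LRP11* and *LRP12* were higher with and without it.

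**Figure D4:**
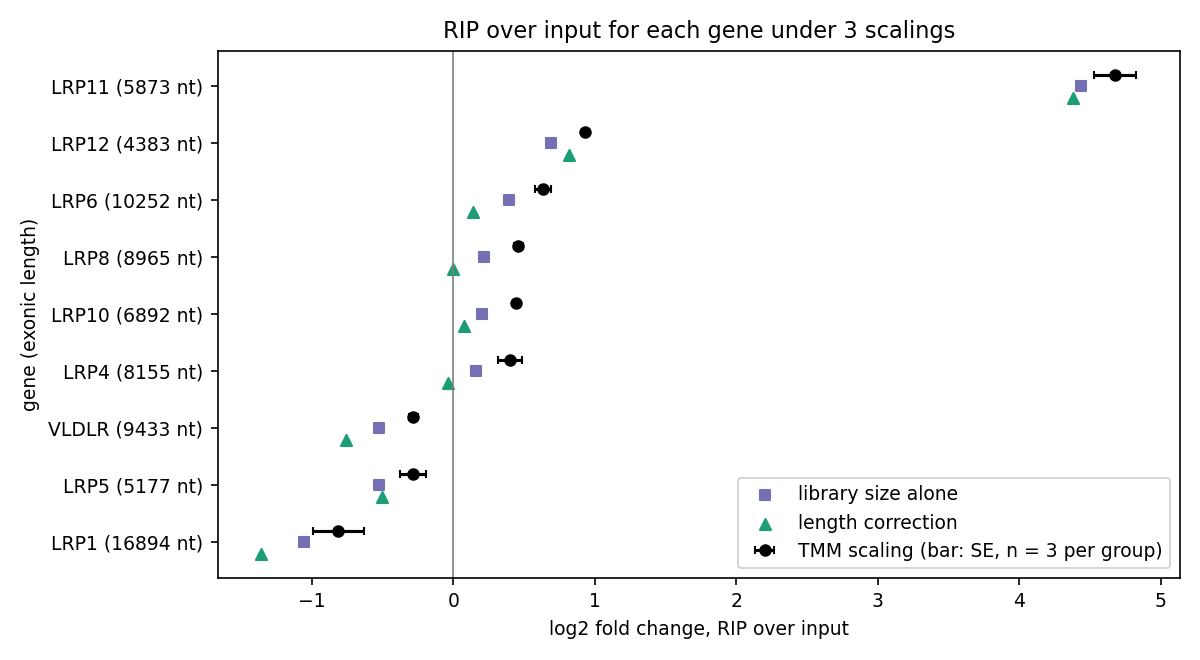
Log2 fold change of each gene, RIP over input, with TMM scaling (circles, bar for the SE over 3 libraries per group), scaled by library size only (squares) and after removal of the length trend (triangles). Positive values are higher in RIP; *LRP8* and *LRP4* cross 0 only after the length correction, and *LRP11* stays above 4 in each.

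Relatives of these receptors outside the 9 genes were counted from a list of class A repeat proteins. Among the 9 with enough reads, edgeR called 2 enriched and 4 depleted and left 3 uncalled, beside 40.7% and 42.0% of all tested genes, and the median log2 fold change was -0.26 against -0.024 over all tested genes. After removal of the length trend 2 were enriched and 5 depleted, beside 40.2% and 40.0% of all tested genes, and the median was -0.53 against -0.0012. *NETO2*, an accessory subunit of kainate receptors, rose 2.53-fold to 437 ± 14.1 CPM, and *LDLRAD3*, a receptor with class A repeats, rose 2.35-fold to 48.9 ± 0.625 CPM. *CD320*, the receptor for transcobalamin-bound vitamin B12, fell from 31.5 ± 0.427 to 5.88 ± 0.219 CPM, 5.37-fold. *DGCR2* was 1.83-fold and *HSPG2* 1.64-fold lower, both called. The giant receptor *LRP2*, megalin of the proximal tubule, had 24, 112 and 18 reads in input and 29, 0 and 0 in RIP and was not called (edgeR adjusted p = 0.164). *LRP1B* had at most 1 read in a library.

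**Figure D5:**
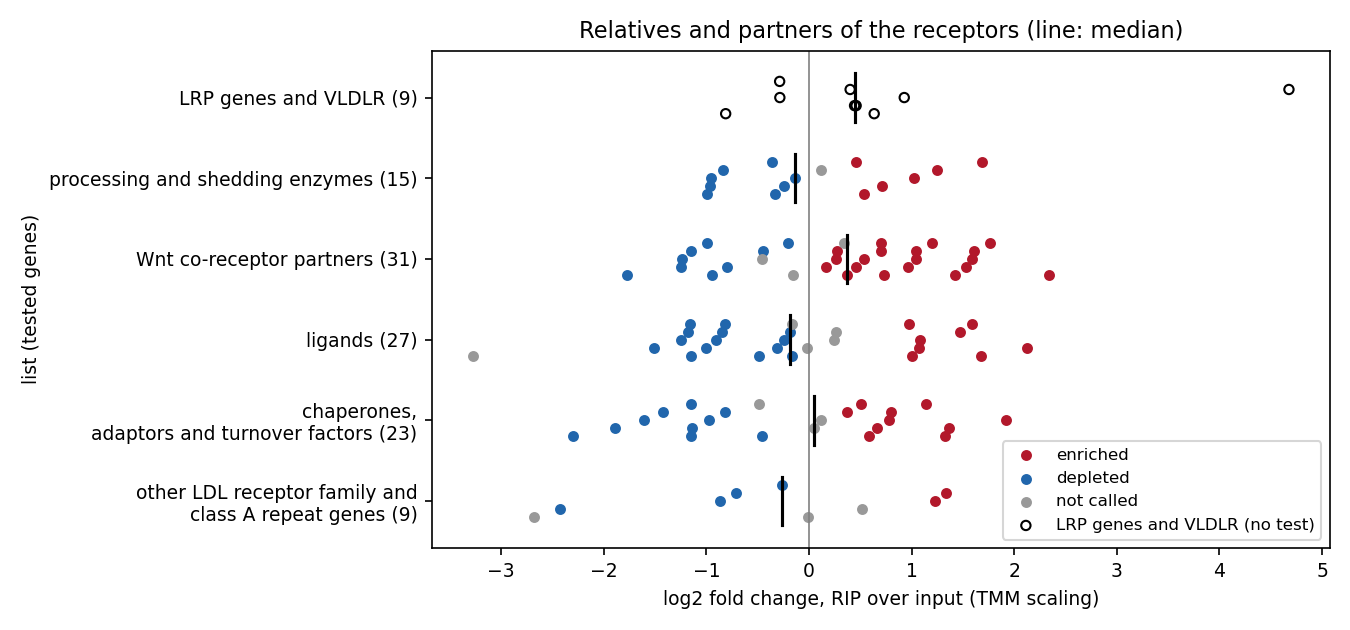
Log2 fold change, RIP over input, of every tested gene in 5 lists of relatives and partners (red enriched, blue depleted, grey not called by edgeR) and of the 9 receptors (open circles, no test); the black line is the median of each list. Each list holds genes on both sides of 0, and *LRP11* lies beyond every gene of the lists.

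Chaperones, tail adaptors and turnover factors had 10 of 23 tested genes enriched, 10 depleted and 3 not called, which is 43.5% each way beside 40.7% and 42.0% of all tested genes. Their median log2 fold change was 0.048 against -0.024 over all tested genes. With the length trend removed, 8 were enriched and 11 depleted, where 40.2% and 40.0% of all tested genes were called. *MESD*, the chaperone that LRP5 and LRP6 need to leave the endoplasmic reticulum, stood at 45.7, 45.7 and 39.6 CPM in input and at 109, 115 and 114 CPM in RIP, a 2.58-fold rise (edgeR adjusted p = 8.14e-18). *LRPAP1*, the receptor-associated protein that keeps ligands off new receptors, stood at 57.5, 51.1 and 52.4 CPM in input and at 40.2, 36.1 and 41.1 CPM in RIP, a 1.37-fold fall (edgeR adjusted p = 1.34e-07). The chaperones specific to the family therefore moved in opposite directions. *DAB2*, an adaptor for the NPxY tail motif and clathrin, rose 3.78-fold to 592 ± 14.9 CPM, *PID1*, which binds the LRP1 tail, 2.51-fold to 9.74 ± 0.440 CPM, and the signalling adaptor *SHC1* 2.20-fold to 363 ± 4.18 CPM. *HSP90B1*, an endoplasmic reticulum chaperone, fell 4.91-fold, and *SNX17*, which recycles LRP1 from endosomes, fell 3.06-fold to 26.1 ± 1.59 CPM. The endosomal sorting genes *COMMD1* and *WASHC1* fell 3.72-fold and 2.69-fold.

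Among ligands, 8 of 27 tested genes were enriched, 14 depleted and 5 not called, which is 29.6% and 51.9% beside 40.7% and 42.0% of all tested genes, and the median log2 fold change was -0.19 against -0.024. With the length trend removed, 12 were enriched and 13 depleted, beside 40.2% and 40.0% of all tested genes. *TFPI*, a coagulation inhibitor cleared by LRP1, stood at 287, 251 and 258 CPM in input and at 1133, 1254 and 1088 CPM in RIP, a 4.37-fold rise (edgeR adjusted p = 9.40e-18). *PDGFB* and the amyloid precursor *APP* rose 2.12-fold and 1.96-fold. *TIMP1*, an inhibitor of matrix proteases, fell 2.84-fold, clusterin (*CLU*) 2.37-fold and agrin (*AGRN*), the ligand of LRP4, 2.22-fold to 178 ± 11.8 CPM. Reelin (*RELN*), named here after its values were seen because its receptors are described above, stood at 139, 179 and 183 CPM in input and at 143, 147 and 157 CPM in RIP and was not called (log2 fold change -0.17, edgeR adjusted p = 0.23). Input 1 was the lowest *RELN* input, as for *LRP1*, and without it *RELN* was called lower in RIP (log2 fold change -0.29, edgeR adjusted p = 2.86e-06). It was also called lower after removal of the length trend (-0.67) and when libraries were scaled by size only (-0.41).

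Partners of the Wnt co-receptors were called enriched in 19 of 31 tested cases, depleted in 9 and uncalled in 3, which is 61.3% and 29.0% beside 40.7% and 42.0% of all tested genes. Their median log2 fold change was 0.37 against -0.024 over all tested genes. With the length trend removed, 14 were enriched and 8 depleted, beside 40.2% and 40.0% of all tested genes, and the median was 0.022 against -0.0012. The Dishevelled genes, whose products bind Frizzled receptors inside the cell, divided: *DVL3*, at 94.3 ± 1.14 CPM in input and 476 ± 10.8 in RIP, rose 5.05-fold (edgeR adjusted p = 1.45e-24), while *DVL1* fell 3.42-fold to 19.7 ± 2.65 CPM and *DVL2* fell 2.22-fold to 22.0 ± 0.755 CPM. Of the 6 listed kinases that phosphorylate the LRP6 tail, 5 rose, *CDK14* by 3.41-fold, *CSNK1G1* by 3.01-fold, *GSK3B* by 2.30-fold, *GSK3A* by 2.06-fold and *CSNK1G3* by 1.95-fold, while *CSNK1G2* fell 2.36-fold. *GSK3B*, *GSK3A* and *CSNK1G3* are named outside the rule, after their values were seen. Nothing is therefore read from this count of kinases, beside which 40.7% of all tested genes were enriched. *KREMEN1*, a receptor that removes LRP6 from the surface, rose 3.04-fold to 130 ± 4.44 CPM, and the scaffold *AXIN1* fell 2.37-fold to 9.07 ± 1.13 CPM.

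Processing and shedding enzymes numbered 6 enriched, 8 depleted and 1 not called of 15, which is 40% and 53.3% beside 40.7% and 42.0% of all tested genes, with a median log2 fold change of -0.13 against -0.024. After removal of the length trend 6 were enriched and 7 depleted, beside 40.2% and 40.0% of all tested genes. *ADAM12* rose 3.23-fold to 219 ± 2.08 CPM, the beta-secretase *BACE1* 2.37-fold to 160 ± 4.83 CPM and the sheddase *ADAM10* 1.64-fold to 745 ± 22.7 CPM. The log2 fold change of *ADAM10*, with an exonic length of 12862 nt, was 0.71, and 0.19 after removal of the length trend. Lower in RIP were *RHBDF1*, a regulator of the sheddase ADAM17, at 1.99-fold, the membrane matrix protease *MMP14* at 1.95-fold, the gamma-secretase subunit *APH1A* at 1.94-fold, and *BMP1* at 1.79-fold.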

How the data were processed

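Both deposited tables hold 1 column per library, each assigned by the sample title it carries, with none left over. Per the file headers, the authors deposited raw read counts per gene symbol and FPKM values for the same genes. Per the submitters' processing notes, fastp 0.23.2, STAR 2.7.10a, featureCounts and DESeq2 were named with the build hg38; the annotation, the strand setting and the handling of multiply aligned reads are not stated there. Counts divided by FPKM and column totals gave a whole gene length to within 2.33e-10 nt, used as exonic length. Coordinates are RefSeq spans (GRCh38.p14), and all 9 symbols matched.

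Libraries were of poly(A) RNA, per the labels. Groups came from the titles. Genes were kept by filterByExpr, scaled with TMM and tested with edgeR 4.0.16 (quasi-likelihood, robust, group only; R 4.3.3) with Benjamini-Hochberg adjustment over 12856 genes and calls under 0.05. CPM are after TMM scaling, and SEs come from log2 CPM (prior count 2) between libraries. The fit was tested on simulated counts. Intervals are not given; the common biological coefficient of variation was 4.55%. The alternatives run were 3 other scalings (RLE, upper-quartile, library size), DESeq2 1.42.0, no filter or 5 CPM in 3 libraries, the replicate block, a length correction (loess of log2 CPM deviation on log2 length, span 0.3), limma 3.58.1 on log2(FPKM + 1) and log2(FPKM + 0.1), and each library left out in turn. The members and gene lists were chosen with earlier results of these data known. Named from each list were up to 4 called genes per direction with a mean of at least 5 CPM, plus *LRP3*, *LRPAP1* and *MESD*, and the 3 genes most like the highest and lowest member; some genes that met this rule are not reported here. No replicates agreed within sampling noise (chi-square per gene 3.42 to 8.34).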

Additional observations from a re-analysis of the deposited data

How the results depend on the processing

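All 43 tested genes that met the naming rule outside the 9 receptors kept their direction and call in every alternative run, as did *PCMT1*, *GSK3A*, *GSK3B* and *CSNK1G3*. *RELN* kept its direction but was called in 7 of the alternatives, *LRP2* was called on log2(FPKM + 0.1), and *RAET1E* lost its call in both FPKM fits. The receptors' directions held under every scaling, DESeq2, filter and FPKM fit and without any 1 library, with 6 higher and 3 lower in RIP. Removal of the length trend turned *LRP8* to -0.0037 and *LRP4* to -0.034, and with the replicate block as well to -0.0043 and -0.034, leaving 4 receptors higher. The median log2 fold change over the receptors, 0.44, was 0.36 with upper-quartile factors, 0.20 with library size alone, -0.0037 with the length correction, -0.0043 with the replicate block and length correction, 0.19 on log2(FPKM + 1) and 0.20 on log2(FPKM + 0.1). It ran from 0.43 to 0.46 when each library was left out. *LRP11* was lowest on log2(FPKM + 1), at 2.62, where the pseudocount exceeds its input level. Enriched ligands numbered 4 instead of 8 under the filter of 5 CPM in 3 libraries, which tests fewer genes. Same-numbered RIP and input libraries did not deviate together (correlations of 0.036, -0.046 and 0.035 across genes). These values cannot decide whether the numbers mark pairs, because noise between replicates could hide shared variation. With the replicate block the median stayed at 0.44 and calls over all genes moved from 5232 enriched and 5403 depleted to 5210 and 5390. Depth limited *LRP11* in input, with 50 to 55 reads.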
